A study of Aspergillus nidulans with 6 samples.

Results

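The genes described here make the pigments of the asexual spores and spore stalks of Aspergillus nidulans, a filamentous fungus. They are wA (AN8209), yA (AN6635), ivoA (AN10576) and ivoB (AN0231), chosen by their gene identifiers, and are 4 of the 10988 features in the deposited table. RNA was sequenced from mycelium of the wild type FGSC A4, grown at 37 °C with shaking in Barratt's minimal broth. In 3 libraries the cultures were untreated, and in 3 they had been given 35 mM tyrosol during exponential growth. No age at harvest or length of exposure is given in the labels, and nothing there says that the replicates were separate cultures, so the p-values rest on a spread between samples that may be only technical. Tyrosol is a phenolic alcohol made from tyrosine, and the comparison asks which transcripts differ between exposed and unexposed mycelium.

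Asexual spores, or conidia, are borne on stalked structures called conidiophores. The conidial wall takes its colour in 2 steps. The polyketide synthase encoded by wA makes a yellow naphthopyrone, and the laccase encoded by yA, a copper oxidase, turns it into the mature green pigment. Mutants of wA have white conidia and mutants of yA have yellow ones. The stalk has a separate brown pigment, built from an acetylated hydroxytryptophan. The ivoA product is a nonribosomal peptide synthetase-like enzyme that acts on tryptophan at the start of that route, and the ivoB product is a phenol oxidase that acts at its end. Mutants of either have colourless, ivory conidiophores. In this fungus these genes are known as genes of conidiophore development, under the regulators brlA, abaA and wetA, and submerged mycelium normally forms few conidiophores.

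In these libraries 3 of the 4 pigment genes fell with tyrosol, yA most and wA least, and ivoA did not pass the test. A fall of more than 2-fold was found for yA and ivoB. All 4 genes passed the filter on low counts. The median log2 fold change was -0.94 over the 4 genes and -0.04 over all 8905 features tested. The response of the whole transcriptome was broad. Adjusted p was under 0.05 for 83.5% of the features tested, with 42.9% called lower and 40.6% called higher with tyrosol, 24.5% were called at least 2-fold lower, and 47.6% were called at least 2-fold in either direction. The 3 libraries of a group lay wholly beyond those of the other for 84.8% of features, and for 3 of the 4 pigment genes. The count of 3 called pigment genes is therefore near the background, and the account below turns on levels and sizes rather than on the count.

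Levels are given as deposited RPKM (reads scaled by gene length and by the library's counted reads), which allows genes to be compared per length. Changes are log2 fold changes, tyrosol over untreated, ± SE, with adjusted p from edgeR's quasi-likelihood test. These fold changes also use a TMM scaling factor for each library, which RPKM lacks. The factors were 1.07 to 1.09 in untreated libraries and 0.919 to 0.929 in tyrosol libraries. RPKM therefore gives lower tyrosol levels, relative to untreated, than the fitted changes do. Reads were few for all but ivoB: 17 to 196 per library for yA, 77 to 184 for wA, 34 to 80 for ivoA and 1577 to 6262 for ivoB. The libraries held 9353438 to 11917409 counted reads. Intervals cover the spread between these libraries, and in bulk RNA fewer cells of a type and less RNA per cell cannot be told apart.

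**Figure D1:**
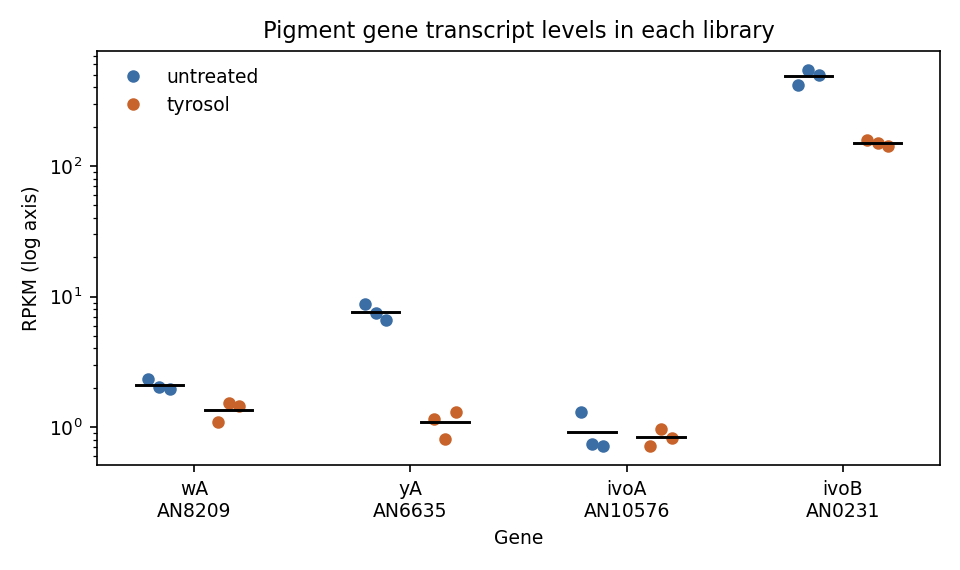
RPKM of wA, yA, ivoA and ivoB in each library on a log axis; points are libraries, 3 untreated (blue) and 3 tyrosol (orange), and black lines are group means. The groups are apart for wA, yA and ivoB and overlap for ivoA, and ivoB lies far above the others in every library.

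The conidial laccase gene yA was at 8.81, 7.52 and 6.59 RPKM in untreated replicates 1, 2 and 3. In tyrosol replicates 1, 2 and 3 it was at 1.16, 0.810 and 1.30 RPKM. Every tyrosol library was thus far below every untreated one. The mean was 7.64 ± 1.12 RPKM (SD, n = 3) untreated and 1.09 ± 0.254 RPKM (SD, n = 3) with tyrosol. That is 14.3% of the untreated RPKM, without the TMM factors that the fitted fall includes. The log2 fold change was -2.58 ± 0.20 (adjusted p = 5.4e-08, edgeR quasi-likelihood), a 5.99-fold fall, with a 95% interval of -3.02 to -2.14. Of all features tested, 6.08% had a lower log2 fold change than yA. Its tyrosol reads numbered 23, 17 and 28, so the size of the fall rests on few reads in that group.

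The conidial polyketide synthase gene wA, listed in the reference gene table as pksP, the name of its relative in another Aspergillus, was a weak transcript in both groups. Untreated replicates 1, 2 and 3 held 2.33, 2.03 and 1.97 RPKM, and tyrosol replicates 1, 2 and 3 held 1.09, 1.53 and 1.44 RPKM. The groups did not overlap, but the gap between the lowest untreated and the highest tyrosol library was small. The mean went from 2.11 ± 0.194 to 1.36 ± 0.232 RPKM (SD, n = 3 each). The log2 fold change was -0.41 ± 0.15 (adjusted p = 0.0218, edgeR quasi-likelihood), a 1.33-fold fall with a 95% interval of -0.74 to -0.09. This fall did not pass without tyrosol replicate 1 (-0.26, adjusted p = 0.146), without untreated replicate 1 (-0.33, adjusted p = 0.0766) or in the DESeq2 Wald test (-0.37, adjusted p = 0.0632). With scaling by total reads alone it was -0.64 (adjusted p = 0.00136). Over the other alternatives that keep the threshold at 0.05, the fall of wA passed. Of all features tested, 39.4% had a lower log2 fold change.

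The phenol oxidase gene ivoB was by far the most abundant pigment transcript. It was at 415, 547 and 497 RPKM in untreated replicates 1, 2 and 3, and at 159, 150 and 142 RPKM in tyrosol replicates 1, 2 and 3. The tyrosol libraries lay close together, well below the lowest untreated library. The mean went from 486 ± 66.6 to 151 ± 8.25 RPKM (SD, n = 3 each), which is 30.9% of the untreated RPKM, without TMM factors. The log2 fold change was -1.47 ± 0.10 (adjusted p = 1.8e-08, edgeR quasi-likelihood), a 2.76-fold fall with a 95% interval of -1.69 to -1.24. By mean RPKM ivoB ranked 262 among 10748 genes with an AN number in untreated mycelium and 825 with tyrosol, so it was still above 92.3% of them after the fall. It supplied 89.4% to 94.4% of the reads of the 4 pigment genes in each library.

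The tryptophan-acting synthetase gene ivoA stood at the other end of the range. Untreated replicates 1, 2 and 3 held 1.31, 0.739 and 0.711 RPKM, and tyrosol replicates 1, 2 and 3 held 0.717, 0.974 and 0.833 RPKM. The groups overlapped, and untreated replicate 1 was the highest library of all. Mean RPKM was 0.921 ± 0.340 untreated and 0.841 ± 0.129 with tyrosol (SD, n = 3 each). The log2 fold change was 0.08 ± 0.25 (adjusted p = 0.773, edgeR quasi-likelihood), with a 95% interval of -0.46 to 0.62. That interval leaves room for a fall or a rise of moderate size, so it does not show that ivoA stayed level. The sign was negative when libraries were scaled by total reads alone (-0.14), and without untreated replicate 1 the value was 0.44 (adjusted p = 0.0721). It was also negative without untreated replicate 2 (-0.07), untreated replicate 3 (-0.06) or tyrosol replicate 2 (-0.02).

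The spread between replicates set how well each gene could be read. For ivoA the coefficient of variation of RPKM among untreated libraries was 36.9%, against 13.7% from read counting alone. For yA with tyrosol it was 23.3%, against 21.0% from counting. In ivoB, where counting error was 1.39% untreated and 2.49% with tyrosol, the spread was 13.7% and 5.48%. Sampling of reads was thus a large part of the spread of yA with tyrosol, and a small part of that of ivoB.

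The genes of each route were present at unequal levels, and their ratios differed between the groups by the amounts given here, none of which could reach p = 0.05 in the exact test. In each library the log2 ratio of the levels of 2 genes was taken from RPKM + 0.1. In the conidial route, yA was at 3.48 times the level of wA in untreated mycelium, and with tyrosol wA was at 1.23 times the level of yA. The log2 ratio of wA over yA was -1.87 to -1.69 in untreated libraries and -0.08 to 0.84 in tyrosol libraries, a difference of 2.10 ± 0.28 (SE). In the conidiophore route, ivoB was at 490 times the level of ivoA untreated and at 161 times that level with tyrosol. The log2 ratio of ivoA over ivoB was -9.35 to -8.20 untreated and -7.60 to -7.13 with tyrosol, a difference of 1.61 ± 0.40 (SE).

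Across the routes, the log2 ratio of yA over ivoB differed by -1.03 ± 0.30 between tyrosol and untreated libraries, although with a pseudocount of 1 that difference was -0.37. The difference for yA over ivoA was -2.64 ± 0.32. For wA it was 1.07 ± 0.25 over ivoB and -0.53 ± 0.20 over ivoA. With the pseudocount of 0.1 the libraries of the groups did not overlap in any of the 6 pairs compared. The 6 pairs share 4 genes, and 84.8% of single features also had groups that did not overlap in RPKM. How often ratios of other genes overlap was not tested. With a pseudocount of 1 the difference for wA over ivoA was -0.35, and the exact permutation p of yA over ivoB, adjusted over the 6 pairs, was 0.3. With the pseudocount of 0.1 the two-sided exact permutation p was 0.1 in each pair, also after Benjamini-Hochberg adjustment over the 6 pairs, which is the smallest p that 3 against 3 libraries allow.

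**Figure D2:**
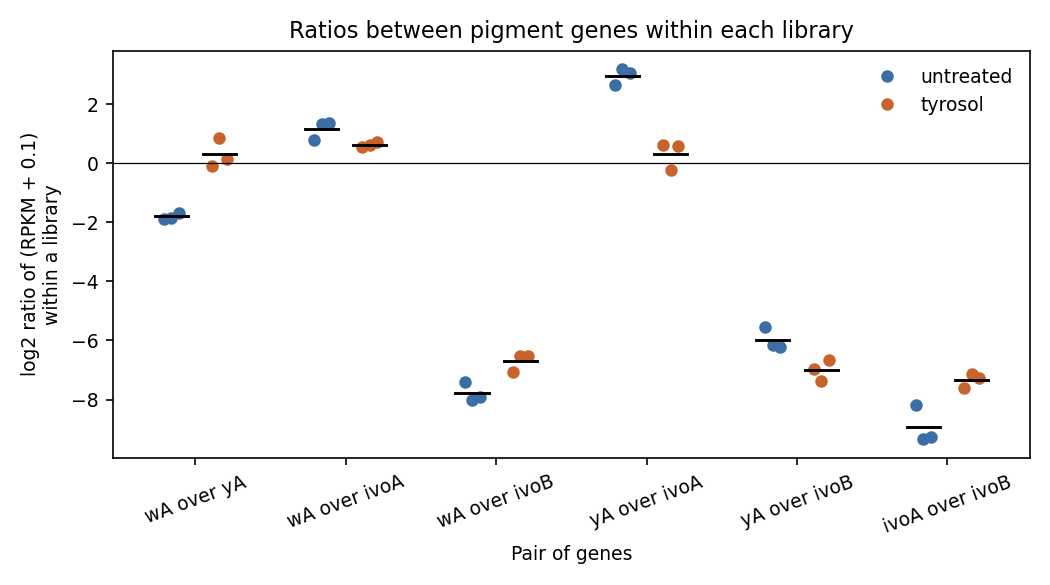
log2 ratio of (RPKM + 0.1) of 2 pigment genes within each library, for the 6 pairs; points are libraries, blue untreated and orange tyrosol, and black lines are group means. The ratio of wA over yA moved from a mean of -1.80 to 0.30 and that of ivoA over ivoB from -8.94 to -7.33.

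The regulators that lead conidiophore development were read beside the pigment genes, together with upstream activators, spore-wall hydrophobins and inhibitors of conidiation. Of 40 symbols looked for in the reference gene table, 17 were found and 16 were tested. Among the 17 symbols for further pigment genes and laccases, 0 were found. Over all features tested, 42.9% were called lower and 40.6% higher with tyrosol. Of the 16 tested genes 11 were lower and 4 higher with tyrosol by the test, and 1 failed it. Their median log2 fold change was -0.78, against -0.04 over all features. A fall of at least 2-fold was called for 6 of them and a rise of that size for 2. Among all features tested, 24.5% were called at least 2-fold lower and 47.6% at least 2-fold in either direction.

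The 3 regulators that act in sequence all fell. The first, brlA, which encodes the transcription factor that starts the programme, was at 28.5, 21.9 and 26.7 RPKM in the untreated libraries and 11.1, 11.4 and 10.6 RPKM with tyrosol. For abaA, which acts in the cells that bud off conidia, the untreated libraries held 2.42, 2.32 and 3.17 RPKM and the tyrosol libraries 0.878, 0.722 and 0.776 RPKM. For wetA, needed for maturation of the conidial wall, they held 1.46, 1.21 and 1.03 RPKM and 0.282, 0.267 and 0.261 RPKM. As for 84.8% of all features, groups were apart for each of these genes. Their log2 fold changes were -0.99 ± 0.11 for brlA, -1.49 ± 0.21 for abaA and -1.96 ± 0.34 for wetA (adjusted p = 1.8e-06, 1.7e-05 and 0.000112, edgeR quasi-likelihood). With limma on log2(RPKM + 1) the values were -1.14 for brlA, -1.01 for abaA and -0.81 for wetA. The order of the sizes thus depended on the processing. The wetA gene had only 5 reads in each tyrosol library, and was not tested with the filter of 50 reads in 3 libraries.

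With brlA, abaA and wetA included, 7 central regulators were tested, of which 4 fell, 2 rose and 1 did not pass. Among all features, 42.9% were called lower and 40.6% higher. The velvet-family gene velB fell by 0.85 on the log2 scale, whereas its partner gene vosA, which acts in spore maturation, rose by 0.47, a value that was 0.24 under scaling by total reads alone and 0.24 with limma on log2(RPKM + 1). The modifier gene medA rose by 0.49 (adjusted p = 0.0142, edgeR quasi-likelihood), a rise that did not pass under scaling by total reads alone (0.26, adjusted p = 0.141). It also did not pass without untreated replicate 2 (0.31, adjusted p = 0.0761) or without tyrosol replicate 3 (0.33, adjusted p = 0.0817). With limma on log2(RPKM + 1) the rise of medA was 0.26 (adjusted p = 0.177), and at a threshold of 0.01 it did not pass either. The libraries of the groups overlapped in RPKM for medA. The modifier gene stuA was abundant at 275 ± 48.8 RPKM untreated and 232 ± 19.9 RPKM with tyrosol. Its log2 fold change was -0.02 ± 0.12 (adjusted p = 0.864, edgeR quasi-likelihood).

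Of the 6 upstream activators 5 fell and 1 rose, where 42.9% of all features were called lower and 40.6% higher. The log2 fold changes were -4.75 for flbC, -3.24 for flbD, -1.50 for fluG, -1.50 for flbA and -0.71 for flbB, and 1.02 for flbE. Both inhibitors found moved in opposite directions: veA, which favours sexual over asexual development, rose by 1.76, and nsdD fell by 0.52 on the log2 scale.

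Markers of conidiophores and conidia were used to check the label of mycelium, which should hold them at a low level. All 6 (brlA, abaA, wetA, vosA, rodA and dewA) were found, and their summed level was 232 to 264 RPKM in untreated libraries and 161 to 197 RPKM with tyrosol. The sum was mostly rodA, the gene of the main conidial hydrophobin, at 189 ± 13.5 RPKM untreated and 131 ± 20.5 RPKM with tyrosol. Its log2 fold change was -0.31 ± 0.11 (adjusted p = 0.0187, edgeR quasi-likelihood), and under scaling by total reads alone it was -0.53. The call was lost without untreated replicate 1 (-0.25), tyrosol replicate 1 (-0.23) or tyrosol replicate 3 (-0.24). The gene of another conidial wall hydrophobin, dewA, gave 0, 2 and 0 untreated reads and 2, 1 and 3 reads with tyrosol, and was not tested. A lower mean RPKM with tyrosol was found for 4 of the 6 markers, and also for every pigment gene, ivoA included. RPKM lacks the TMM factors, and with scaling by total reads alone the middle value over the features tested was itself -0.26 on the log2 scale. A lower mean RPKM therefore does not set these markers apart. In untreated libraries the marker levels were mixed. Besides rodA, mean RPKM was 26.2 for vosA and 25.7 for brlA, but 2.64 for abaA, 1.23 for wetA and 0.0846 for dewA. The check therefore did not settle the label. The share of conidiophore cells in the mycelium was not measured, and its part in the falls of the pigment genes was not tested.

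**Figure D3:**
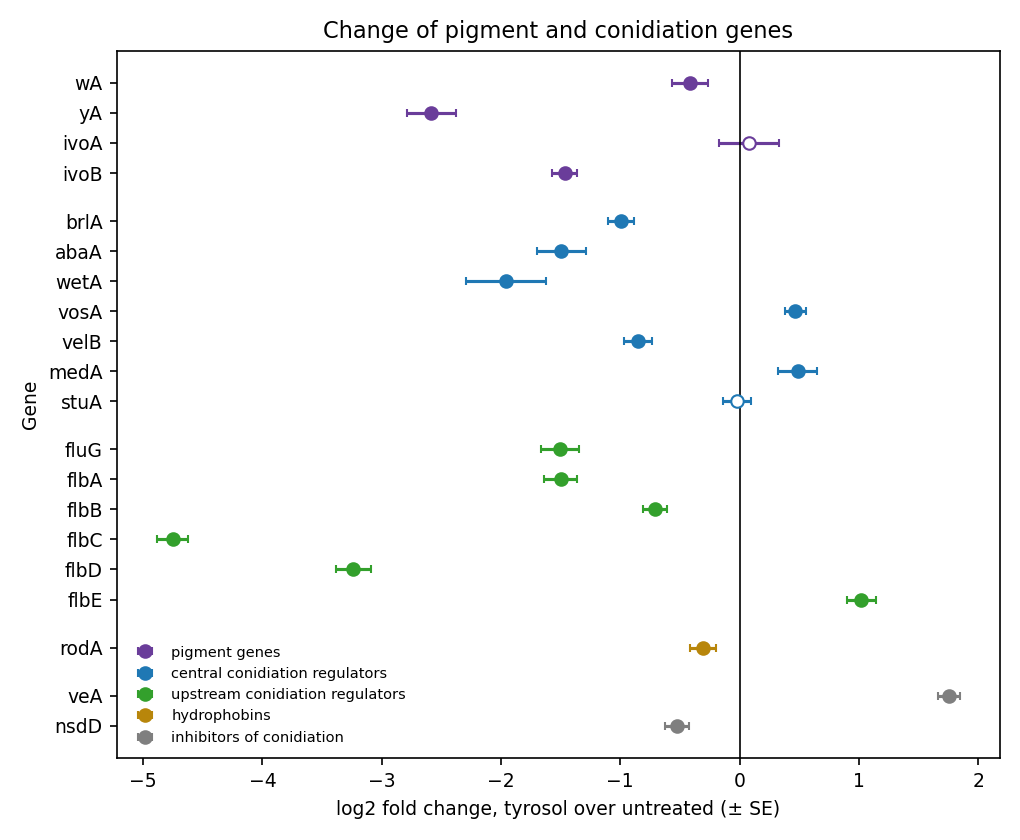
log2 fold change, tyrosol over untreated, of the 4 pigment genes and the 16 tested conidiation genes; points are fitted values, bars are SE, and open points did not pass an adjusted p of 0.05. The yA value of -2.58 lies below those of brlA, abaA and wetA but above those of flbC and flbD, and ivoA and stuA lie near 0.

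The 4 pigment genes are spread over the genome and are not neighbours of one another. In the gene order of the reference table, the 2 genes on each side of every pigment gene give 16 neighbours, of which 14 are in the count table used here and 12 were tested. Of these 5 fell, 3 rose and 4 did not pass, a share of falls near that of all features. The call of 1 of the rises, that of AN8208, was lost in 8 of 16 alternatives, as given below.

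The surroundings of yA moved most. Of its 4 neighbours 3 fell at least 2-fold and 1 rose, where 24.5% of all features were called at least 2-fold lower. The adjacent AN6634 was at 6.36, 6.24 and 5.14 RPKM untreated and 0.635, 0.601 and 0.587 RPKM with tyrosol, a log2 fold change of -3.05 ± 0.23. It had only 9 reads in each tyrosol library, and its value was -2.10 with limma on log2(RPKM + 1). On the other side AN6636 was at 71.4, 75.3 and 68.1 RPKM untreated and 12.8, 10.8 and 12.2 RPKM with tyrosol, a change of -2.36 ± 0.10. Beyond AN6634, AN6633 went from 254 ± 41.7 to 22.5 ± 1.67 RPKM (-3.27 ± 0.13). These genes all had groups that did not overlap, as had 84.8% of all features. The adjusted p of these 3 genes lay between 6.2e-11 and 3.0e-08 (edgeR quasi-likelihood). Beyond AN6636, AN10840 rose by 1.01 ± 0.25, and by 0.46 with limma on log2(RPKM + 1). It had 13 to 25 reads in the untreated libraries. The strand setting of the counting is not given in the sources used here, so reads shared between adjacent genes cannot be told apart.

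The neighbours of ivoB had smaller log2 fold changes than ivoB. The adjacent AN0232, on one side, was at 147 ± 12.4 RPKM untreated and 137 ± 4.09 RPKM with tyrosol, with overlapping libraries and a log2 fold change of 0.12 ± 0.09 (adjusted p = 0.21, edgeR quasi-likelihood). Under scaling by total reads alone that value was -0.10. On the other side AN0230 fell by 0.58 ± 0.14. Beyond AN0232, AN0233 had a value of -0.06 ± 0.12, which was -0.28 under scaling by total reads alone (adjusted p = 0.044, edgeR quasi-likelihood). Next to wA, AN8208 was at 15.6 ± 0.933 RPKM untreated and 15.5 ± 1.09 RPKM with tyrosol, and its log2 fold change of 0.22 ± 0.09 became -0.01 under scaling by total reads alone. Of the 16 alternatives 6 lost its call with the sign kept, among them upper-quartile factors (0.15, adjusted p = 0.135) and leaving out untreated replicate 2 (0.18), tyrosol replicate 1 (0.19) or tyrosol replicate 2 (0.22), and 2 reversed its sign. On the other side of wA, the adjacent AN8210 was not in the count table, and AN8211 beyond it fell by 1.35 ± 0.10. Next to ivoA, AN10573 was at 7.75 ± 0.526 RPKM untreated and 5.50 ± 1.20 RPKM with tyrosol. Its log2 fold change was -0.27 ± 0.16 (adjusted p = 0.124, edgeR quasi-likelihood). Under scaling by total reads alone it was -0.50 (adjusted p = 0.0101), and without tyrosol replicate 2 it was -0.44 (adjusted p = 0.0233). Beyond AN10573, AN4642 had a value of -0.31 ± 0.29, which was -0.05 without tyrosol replicate 2 and -0.54 under scaling by total reads alone. On the other side of ivoA, the adjacent AN4640 had 0 to 2 reads per library and was not tested. Beyond AN4640, AN4639 rose by 1.03 ± 0.11.

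**Figure D4:**
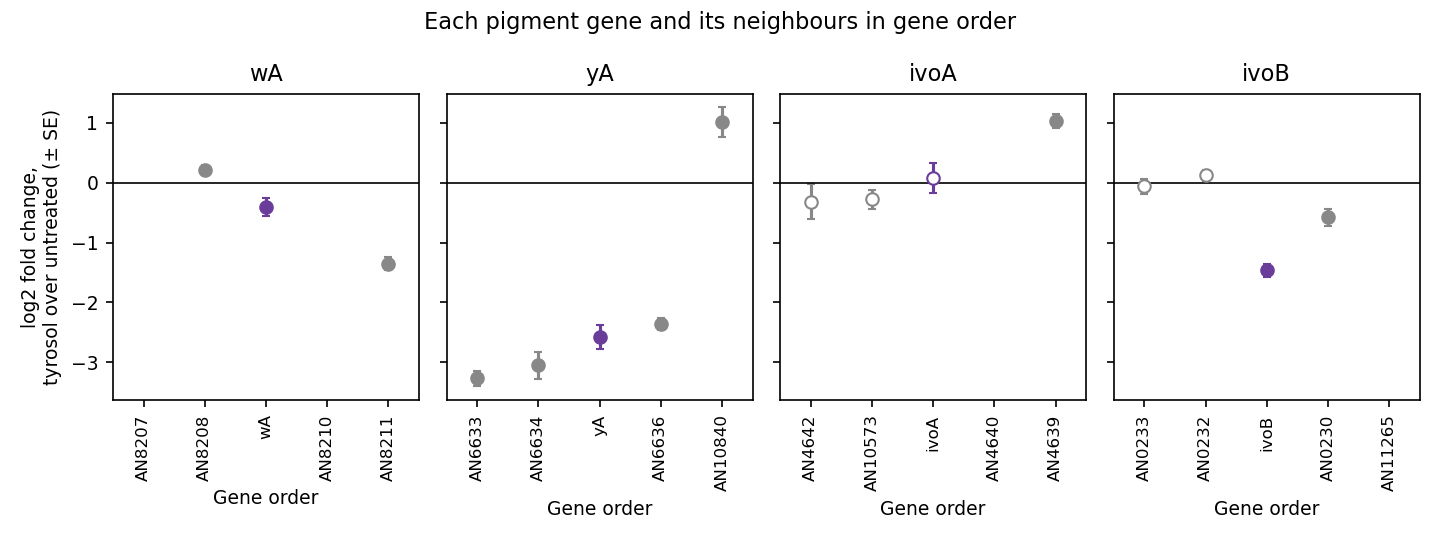
log2 fold change, tyrosol over untreated, of each pigment gene (purple) and the 2 genes on each side in gene order (grey); points are fitted values, bars are SE, open points did not pass an adjusted p of 0.05, and a name with no point was not tested or not in the table. Around yA 3 neighbours lie between -3.27 and -2.36, and the neighbours of ivoB lie nearer 0 than ivoB.

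Among 756 other named genes, those whose log2 CPM followed each pigment gene most closely over the 6 libraries were found by the root-mean-square difference after centring on the untreated mean. For yA they were ugp1, of UDP-glucose synthesis, at a difference of 0.17, and dppIV, a dipeptidyl peptidase gene, at 0.21. Their log2 fold changes were -2.54 ± 0.11 and -2.44 ± 0.10. For ivoB they were yaf9 (0.08) and spt16 (0.09), both genes of chromatin factors, with changes of -1.38 ± 0.12 and -1.43 ± 0.10. For wA they were btgE (0.11) and ptpA (0.12), and for ivoA chiA1 (0.17) and pakA (0.20). With 2 groups of libraries such closeness mainly says that 2 genes had a like difference between the groups.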

How the data were processed

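Libraries were made from the total RNA of freeze-dried mycelium with a TruSeq RNA kit, per the labels' protocols. Tools named in the submitters' processing notes are HISAT2 2.1.0, an aligner, and FastQC, edgeR and DESeq2 1.24.0, without their settings. How reads were counted, with what strand setting and on which build and annotation, is not given in the sources used here. Per the file headers, the deposited table gives a whole-number read count, a length and an RPKM value per feature and library. The deposited RPKM values equal the count scaled by listed length and column total. Columns headed T were read as tyrosol and columns headed K as untreated (kontroll), numbered as the titles are.

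Counts were filtered with filterByExpr, scaled with TMM and tested with edgeR 4.0.16 (quasi-likelihood, two-sided, no covariate) in R 4.3.3. Benjamini-Hochberg adjustment was over all 8905 features tested, and calls are at 0.05. Each SE was derived as the absolute log2 fold change over the square root of F. Alternatives used DESeq2 1.42.0, limma 3.58.1, other scalings, filters and thresholds, a replicate block, other pseudocounts and leaving out each library. Symbols and gene order came from RefSeq assembly ASM1142v1, which matched 10029 of the 10988 features, and gave 778 of them a symbol. Since the build of the counts is not known, no coordinates are given. Genes named are the pigment genes, conidiation genes by symbol, gene-order neighbours and the 2 closest named genes. Members and lists were chosen with earlier results of these data known.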

Additional observations from a re-analysis of the deposited data

How the results depend on the processing

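The falls of yA and ivoB passed under all 16 alternatives, at -2.81 to -2.05 and -1.69 to -1.42, and at -2.73 to -2.39 and -1.57 to -1.38 with 1 library left out. The fall of wA failed to pass in the DESeq2 Wald test (-0.37), at a threshold of 0.01 (-0.41, adjusted p = 0.0218) and without untreated replicate 1 or tyrosol replicate 1, and ran from -0.49 to -0.26 with 1 library left out and from -0.64 (library size alone) to -0.37 otherwise; the cause was not tested. The value of ivoA reversed with library size alone (-0.14) and with limma on log2(RPKM + 1) (-0.049), and ran from -0.072 to 0.44 with 1 library left out; it did not pass in any of its 15 alternatives and was not tested with the filter of 50 reads in 3 libraries. Library size alone shifted the median of all features by -0.22 on the log2 scale, and the share of called features that rose went from 48.7% to 41.1%. Relative to that median wA, yA and ivoB stood at -0.37, -2.54 and -1.43 under both scalings. This had to be so, since a change of scaling shifts all features nearly alike. With limma on log2(RPKM + 1) they stood at -0.17, -1.81 and -1.44 relative to its median. Other reversals were in genes near 0. For stuA the values were 0.0205 with DESeq2 size factors and 0.0205 in the DESeq2 Wald test, for AN8208 -0.0085 with library size alone and -0.0094 with limma on RPKM, and for AN0232 -0.10 and -0.10. For chiA1 they were -0.20 with library size alone, -0.038 with upper-quartile factors and -0.17 with limma on RPKM, and for pakA -0.19, -0.029 and -0.17. With 1 library left out stuA ran from -0.13 to 0.13, AN0233 from -0.18 to 0.018, chiA1 from -0.12 to 0.22 and pakA from -0.021 to 0.15. Same-numbered libraries did not deviate together (correlation of deviations -0.08 to -0.01), which does not show whether they shared a culture day or handling. With the replicate block the values were -0.42 for wA, -2.58 for yA, 0.11 for ivoA and -1.46 for ivoB, and 7383 features were called against 7432. The counts of called features and of called conidiation genes (13 to 15) stayed within 1.5 times, and the differences between pairs of pigment genes kept their sign. Few reads limit wA, yA, ivoA and wetA.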
